A study of Mus musculus with 6 samples.

Results

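The myosin heavy and light chain genes were followed on 6 spotted arrays of mouse skeletal muscle RNA. A probe was taken when the platform annotation named exactly 1 of the 9 listed symbols, which were Myh1, Myh2, Myh4, Myh7, Myl1, Myl2, Myl3, Mylpf and Myl12b. This gave 81 of the 13872 probes and 8 of the 3939 genes that had a probe with 1 symbol. Myh4 held 44 of the probes, Myl1 9, Myl12b 8, Myh7 6, Myh2 2, and Myl2, Myl3 and Mylpf 4 each. Myh1 had no probe of its own. The rule used no measured value.

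Each array set 1 muscle RNA against a common reference RNA from control muscle, called Pre. One array held muscle of sham-operated mice that carried an implanted pacer which stayed off. On the other arrays the muscle had been paced electrically for 3 h and was collected immediately (0 h) or after 1 h, 3 h, 8 h or 24 h. The sham mice were sampled in parallel with the 0 h group, so at the later times pacing and elapsed time cannot be told apart. The strain, age, muscle and number of mice behind each RNA are not given in the sources used here. Each group had 1 array, so there was no replicate check and no test was made. The SD given with a gene is the spread of its probes, which share 1 RNA and are not replicates of a condition. All values are log2 ratios to Pre or differences between them, and 2-fold means an absolute log2 difference of 1 or more.

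Myosin heavy chains are the motor proteins of the thick filament, and each carries an essential and a regulatory light chain on its lever arm. The heavy chain isoform sets much of a fibre's speed: Myh4 encodes the fastest, type IIb, chain of mouse limb muscle, Myh1 and Myh2 the IIx and IIa chains, and Myh7 the slow type I chain shared with the heart. Myl1 and Mylpf encode the fast essential and regulatory light chains, and Myl3 and Myl2 those of slow and cardiac muscle. Myl12b encodes a regulatory light chain of nonmuscle myosin II, found in most cell types.

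Myh2, Myh1 and Myh4 lie side by side on chromosome 11, with the antisense RNA gene Myhas between Myh1 and Myh4. Myh6 and Myh7 are neighbours on chromosome 14, and Myl12a and Myl12b on chromosome 17. The 250 bases upstream of the start of the 3 fast heavy chain genes are shown with those of Myl12b, because Myh4 and Myl12b carried the main values below and the heavy chain genes are close relatives. Sequences are from RefSeq, build GRCm38.p6, written 5′ to 3′ on the gene's strand. Capitals mark matches, on either strand, to TATAAA, to the MEF2 consensus or to the CArG box.
Myh2 (chr11:67170777-67171026, plus strand): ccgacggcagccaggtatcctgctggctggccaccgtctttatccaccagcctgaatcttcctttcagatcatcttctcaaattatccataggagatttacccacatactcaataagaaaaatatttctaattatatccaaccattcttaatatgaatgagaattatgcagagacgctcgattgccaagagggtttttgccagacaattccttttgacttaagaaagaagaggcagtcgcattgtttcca
Myh1 (chr11:67199852-67200101, plus strand): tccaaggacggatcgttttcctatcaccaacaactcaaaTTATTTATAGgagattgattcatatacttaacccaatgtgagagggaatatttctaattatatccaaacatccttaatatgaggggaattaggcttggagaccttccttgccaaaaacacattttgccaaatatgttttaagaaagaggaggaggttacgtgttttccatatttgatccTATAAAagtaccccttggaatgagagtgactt
Myh4 (chr11:67237562-67237811, plus strand): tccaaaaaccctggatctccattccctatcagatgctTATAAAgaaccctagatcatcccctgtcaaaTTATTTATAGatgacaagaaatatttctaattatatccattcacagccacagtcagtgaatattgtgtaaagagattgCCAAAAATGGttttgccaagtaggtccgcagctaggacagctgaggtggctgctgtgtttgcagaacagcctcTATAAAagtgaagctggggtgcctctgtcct
Myl12b (chr17:70990517-70990766, minus strand): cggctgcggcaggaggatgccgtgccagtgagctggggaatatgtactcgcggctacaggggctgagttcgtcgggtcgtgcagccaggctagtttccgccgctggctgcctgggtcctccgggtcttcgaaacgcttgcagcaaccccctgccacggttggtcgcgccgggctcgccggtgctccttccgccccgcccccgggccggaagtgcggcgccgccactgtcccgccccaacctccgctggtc
The Myh4 window held 3 matches to TATAAA, starting at -213, -179 and -31 from the start of the gene, a MEF2 match at -182 that overlaps one of them, and a CArG match at -104. The Myh1 window held a MEF2 match at -211 with an overlapping TATAAA at -208, and another TATAAA at -32. Neither the Myh2 window nor that of Myl12b held any of these letters. Over all 32851 windows of 250 bases, 12.4% held TATAAA, 2.92% MEF2 and 1.47% a CArG box. Myh2 and Myh4 share a run of 21 bases, aaatatttctaattatatcca. The longest run that Myl12b shares with any of the heavy chain windows is 9 bases. The Myl12b window is 71.2% GC against 42.0% for Myh4 and a median of 52.4% over all windows. A match is a description of the letters only.

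The sham array differed in form from the paced arrays. It had 485 empty cells, 201 exact zeros and 154 values shared by several probes, against no empty cells and 665 to 1762 zeros on the paced arrays. Zeros and shared values were treated as not measured, which left 87.3% to 95.2% of probes. The sham array also had the largest robust SD of log2 ratios, 0.495 against 0.176 to 0.445. Member genes with a sham value are therefore described against both sham and Pre. Gene lists and cell markers are given mainly against sham. Positive values were read as higher in the sample than in Pre, the likely direction given that Pre is labelled the reference, but no dye is named. All 15 pairs of arrays correlated positively across probes, with r from 0.19 to 0.71.

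A second feature of the arrays touched the myosin probes. The annotation gives 113 sequence accessions to 2 probes each, exactly 288 probe IDs apart. The later ID is called the second spot here. The ratios within a pair did not follow each other: the correlation of second with first spots was -0.01 on sham (60 pairs), -0.08 at 0 h (56 pairs), -0.04 at 1 h (55 pairs), -0.09 at 3 h (53 pairs), 0.12 at 8 h (75 pairs) and -0.10 at 24 h (46 pairs). Probes of the same gene with different accessions correlated at 0.29 to 0.55 (1473 to 1653 pairs). Second spots stood at 0 on all 5 paced arrays in 34 of the 113 pairs, and first spots in 0. Members held 10 of these pairs. Of their second spots, 6 were at 0 on every paced array, and the other 4 were a pair for Myh4 (probes 4598 and 5756), 1 for Myl2 (8059) and 1 for Myl12b (9232). What these 4 spots hold was not tested. The members' means and differences from sham that include them are also given without them.

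**Figure D1:**
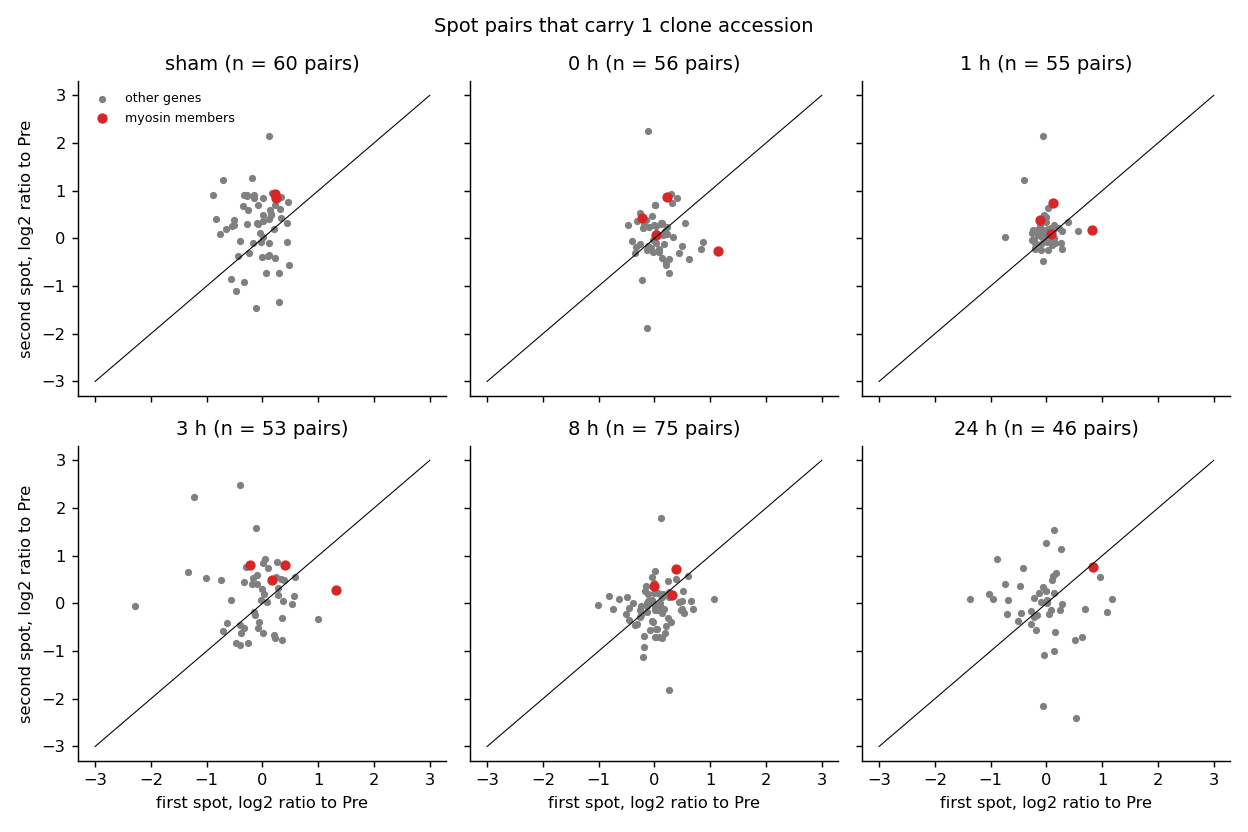
Second spot (vertical axis) against first spot (horizontal axis) of each accession listed on 2 probes, as log2 ratios to Pre, with 1 panel per array; red points are myosin members and the line marks equal values. The points do not follow the line, with r between -0.10 and 0.12.

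Myh4 was below Pre in sham muscle, above it at 0 h, 1 h and 3 h, and below it again, by less in log2 units, at 8 h and 24 h. Over its probes, the mean log2 ratio to Pre was -0.57 on the sham array (probe SD 0.67, 41 probes), 0.21 at 0 h (SD 0.23, 35 probes), 0.17 at 1 h (SD 0.18, 39 probes), 0.10 at 3 h (SD 0.22, 37 probes), -0.23 at 8 h (SD 0.29, 43 probes) and -0.10 at 24 h (SD 0.22, 36 probes). Without its second spots the sham mean was -0.65 (SD 0.58, 39 probes), and the paced means were 0.21, 0.17, 0.07, -0.26 and -0.10 in time order. On sham, 32 of 41 probes were below Pre and 7 were 2-fold below it, against 2.57% of all single probes with 1 symbol, whereas no Myh4 probe was 2-fold from Pre on any paced array. The sham probes ran from -1.95 (probe 964) through a median of -0.65 to 1.05 (probe 4598, a second spot). The highest first or single spot on sham was probe 11249, at 0.55. At 0 h the probes ran from -0.29 through 0.27 to 0.70, and at 8 h from -0.78 through -0.27 to 0.45. At 8 h, 34 of 43 probes were below Pre. The arrays differ in robust SD (0.495 on sham, 0.242 at 8 h), and counted from the lowest gene Myh4 ranked 455 of 3836 on sham and 547 of 3872 at 8 h. The probes on sham and at 0 h overlapped, and the probe SD on sham was larger than on the other arrays.

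The difference from sham was accordingly positive at every time. Myh4 was higher than sham by 0.87 at 0 h (probe SD 0.81, 33 probes, 1.82-fold), 0.73 at 1 h (SD 0.73, 37 probes), 0.75 at 3 h (SD 0.65, 35 probes), 0.33 at 8 h (SD 0.50, 41 probes) and 0.57 at 24 h (SD 0.55, 34 probes). Leaving out the second spots gave 0.97, 0.81, 0.81, 0.38 and 0.57. Of the 33 probes at 0 h, 28 were above sham and 14 were 2-fold above it, while 49.9% of all single probes with 1 symbol were above sham and 4.62% were 2-fold higher. As a gene mean Myh4 was not 2-fold from sham at any time. No probe was 2-fold lower than sham at any time, and 13 of 37, 13 of 35, 3 of 41 and 6 of 34 were 2-fold higher at 1 h, 3 h, 8 h and 24 h, where 1.55%, 2.32%, 2.58% and 4.25% of single probes were. The probes of Myh4 share 1 RNA, so these counts are a description. The difference was larger than its probe SD at 0 h, 3 h and 24 h and smaller at 1 h, where the values were close, and at 8 h. Against Pre the same paced values were above 0 at 0 h, 1 h and 3 h and below 0 at 8 h and 24 h, so the direction at the last 2 times depends on the comparator. Setting the paced arrays against each other leaves sham out: Myh4 differed by -0.47 between 8 h and 0 h (SD 0.41, 30 of 35 probes lower) and by -0.32 between 24 h and 0 h (0.27, 27 of 30 probes lower).

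Myh4 was also set beside the other genes with many probes. Among 32 genes with 10 or more probes on the sham array, Myh4 had the lowest mean and the largest probe SD, 0.67 against a median SD of 0.31. Among the 28 such genes at 0 h and at 1 h and the 30 at 3 h, it had the highest difference from sham. At 8 h, 1 of 31 such genes was higher, and at 24 h 2 of 28 were, led both times by Hspa8, a constitutive heat shock protein (0.48 and 1.01). These differences carry the low sham value of Myh4. Against Pre, 3 of 29 such genes were higher than Myh4 at 0 h, 4 of 29 at 1 h and 14 of 30 at 3 h. At 8 h 22 of 31 were higher, and at 24 h 14 of 28. Ttn, the giant spring protein of the sarcomere, had a difference from sham of 0.33 at 0 h (probe SD 0.61, 43 probes). Over all genes measured, 198 of 3584 were higher than Myh4 relative to sham at 0 h, 137 of 3697 at 1 h and 116 of 3625 at 3 h, and 969 of 3793 at 8 h. Relative to Pre, 771 of 3649 were higher at 0 h, 561 of 3768 at 1 h, 1419 of 3688 at 3 h and 3325 of 3872 at 8 h. In bulk muscle, fewer cells of a type and less RNA per cell cannot be told apart.

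**Figure D2:**
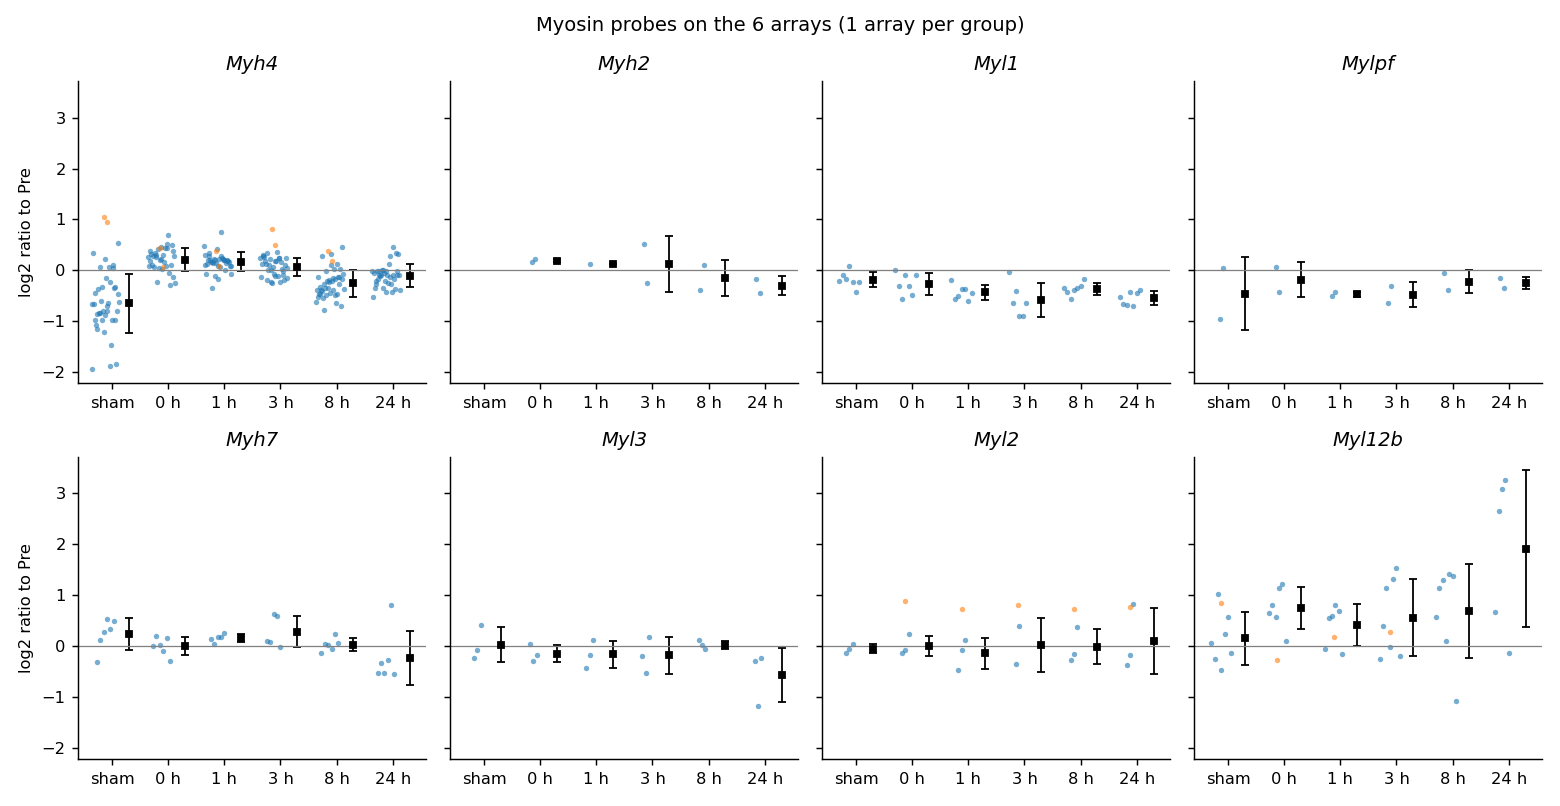
Log2 ratio to Pre of every measured probe of the 8 genes, by group (sham, then hours after pacing). Blue points are first or single spots, orange points second spots, and black squares the mean without second spots with 1 probe SD; Myh4 lies lowest on sham at -0.65 and Myl12b highest at 24 h at 1.91.

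Myh2 and Myh1, the other fast heavy chains, were thinly covered. Myh2 had no value on sham, since 1 of its 2 probes was empty there and the other at 0. Its means against Pre were 0.19 at 0 h (probe SD 0.04, 2 probes), 0.12 at 1 h (1 probe), 0.13 at 3 h (SD 0.55, 2 probes), -0.15 at 8 h (SD 0.35, 2 probes) and -0.31 at 24 h (SD 0.19, 2 probes). Both probes were above Pre at 0 h and below it at 24 h, the difference between these times being -0.50 (SD 0.22). Myh1 appeared only on probe 11301, which the annotation gives to both Myhas and Myh1. That probe read -0.05 on sham and, in time order, -0.12, -0.06, -0.21, -0.73 and -0.46 on the paced arrays. The 8 h value is the lowest of the 6, and whether it belongs to Myh1 or to Myhas was not tested.

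The fast light chains were below Pre on every array in their means. Myl1, the fast essential light chain, had means against Pre of -0.18 on sham (probe SD 0.15, 7 probes), -0.26 at 0 h (SD 0.21, 7 probes), -0.43 at 1 h (SD 0.14, 7 probes), -0.58 at 3 h (SD 0.33, 6 probes), -0.36 at 8 h (SD 0.12, 7 probes) and -0.54 at 24 h (SD 0.13, 7 probes). Its difference from sham was -0.08 at 0 h (SD 0.21), -0.25 at 1 h (SD 0.18), -0.40 at 3 h (SD 0.30), -0.18 at 8 h (SD 0.23) and -0.36 at 24 h (SD 0.21). At 24 h all 7 probes were below sham, and the difference was larger than its probe SD. Mylpf, the fast regulatory light chain, rested on 2 probes, with a mean of -0.46 on sham and means of -0.18, -0.47, -0.48, -0.22 and -0.25 on the paced arrays in time order. These probes disagreed on sham, where probe 843 read -0.96 and probe 5465 read 0.05. Its difference from sham at 0 h, 0.28, was smaller than its probe SD of 1.05, with 1 probe above sham and 1 below.

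The slow heavy chain and its essential light chain were lower at 24 h than on the other arrays. Myh7 stood at 0.24 on sham (probe SD 0.31, 6 probes), -0.00 at 0 h (SD 0.18, 6 probes), 0.16 at 1 h (SD 0.08, 5 probes), 0.28 at 3 h (SD 0.30, 5 probes), 0.03 at 8 h (SD 0.13, 6 probes) and -0.23 at 24 h (SD 0.52, 6 probes). At 24 h, 5 of the 6 Myh7 probes lay between -0.55 and -0.26 and probe 5334 at 0.81. The difference from sham was -0.24, -0.03, 0.01, -0.21 and -0.47 at 0 h, 1 h, 3 h, 8 h and 24 h, and the last had a probe SD of 0.55, with 5 of 6 probes below sham. Myl3, over 3 probes, averaged 0.03 on sham (probe SD 0.34), -0.15 at 0 h (SD 0.17), -0.16 at 1 h (SD 0.27), -0.18 at 3 h (SD 0.36), 0.02 at 8 h (SD 0.08) and -0.57 at 24 h (SD 0.52). Its 3 probes were all below sham at 24 h, with a difference of -0.60 (SD 0.52) that probe 7483 led at -1.17 against Pre. Between 8 h and 24 h the difference was -0.59 (SD 0.52), again with 3 of 3 probes lower.

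Myl2, the slow and cardiac regulatory light chain, showed no common direction among its probes. Without the second spot its means were -0.05 on sham (probe SD 0.08, 3 probes), 0.01 at 0 h (SD 0.20, 3 probes), -0.14 at 1 h (SD 0.30, 3 probes), 0.03 at 3 h (SD 0.53, 2 probes), -0.01 at 8 h (SD 0.35, 3 probes) and 0.10 at 24 h (SD 0.65, 3 probes). With probe 8059 included the paced means were 0.23, 0.08, 0.29, 0.17 and 0.27. That second spot read 0.88, 0.74, 0.81, 0.72 and 0.77 on the paced arrays, and its first spot, probe 7771, read 0.23, 0.13, 0.40, 0.38 and 0.83. At 24 h probe 7771 differed from sham by 0.79 while probes 3021 and 4633 were below sham, and the mean of 0.15 was smaller than the probe SD of 0.57.

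Fast and slow isoforms were compared within each array by the mean of Myh4, Myl1 and Mylpf minus the mean of Myh7, Myl2 and Myl3; Myh2 was left out because it had no sham value. The mean of the fast genes was lower than that of the slow genes relative to Pre on every array. Single genes did not all follow. Without second spots Myh4 at 0 h (0.21) was above Myh7 (-0.00), Myl2 (0.01) and Myl3 (-0.15). The difference was -0.48 on sham and, on the paced arrays in time order, -0.10, -0.27, -0.45, -0.34 and -0.12. Without second spots it was -0.50, -0.03, -0.20, -0.37, -0.29 and -0.06. The spread of the difference, the root of the summed squares of both SDs over 3 genes, ranged from 0.11 to 0.48. The difference was larger than that spread on sham (spread 0.25) and at 8 h (spread 0.11), and smaller at 0 h, 1 h, 3 h and 24 h. On sham Myh4 was the lowest of the fast genes, and at 0 h, 1 h, 3 h and 24 h it was the highest, with Myl1 and Mylpf below Pre.

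**Figure D3:**
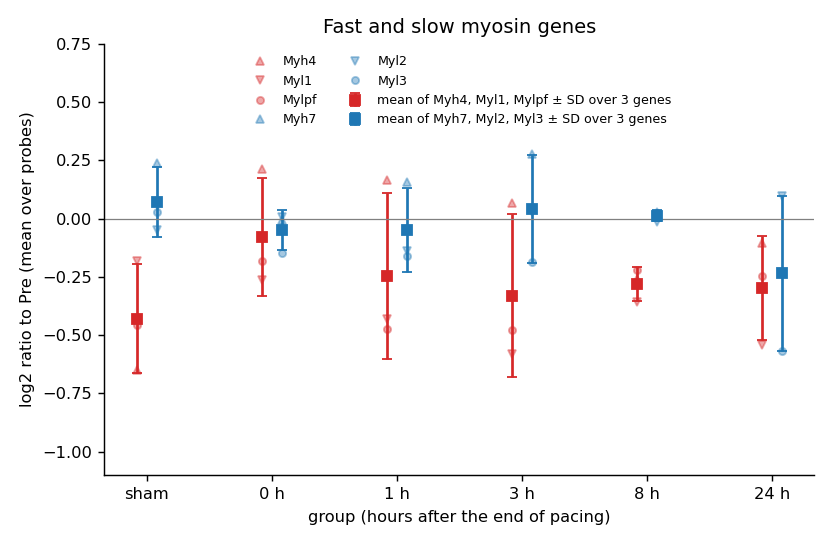
Mean log2 ratio to Pre by group of the 3 fast (red) and 3 slow (blue) myosin genes without second spots; squares and bars give the mean and SD over 3 genes and pale symbols the genes. The red and blue bars are apart on sham (-0.43 against 0.07) and at 8 h (-0.28 against 0.01) and overlap at the other times.

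Myl12b was the member farthest from sham and from Pre, at 24 h. Its mean against Pre was 0.24 on sham (probe SD 0.54, 8 probes), 0.60 at 0 h (SD 0.54, 7 probes), 0.37 at 1 h (SD 0.39, 7 probes), 0.52 at 3 h (SD 0.71, 8 probes), 0.69 at 8 h (SD 0.92, 7 probes) and 1.91 at 24 h (SD 1.54, 5 probes). Without the second spot, which had no value at 8 h or 24 h, Myl12b averaged 0.15 on sham and 0.75, 0.41 and 0.56 at 0 h, 1 h and 3 h. Relative to sham it was higher by 0.26, 0.04, 0.29 and 0.54 on the first 4 paced arrays, each less than its probe SD. Without the second spot these were 0.49, 0.15, 0.41 and 0.54. At 24 h the difference from sham was 1.65, or 3.14-fold (probe SD 1.29, 5 probes, 4 above sham). Only 11 of 3593 genes were higher relative to sham at 24 h. Between 8 h and 24 h it was higher by 1.25 (SD 0.74), with 5 of 5 probes higher, and 1.04% of genes were 2-fold apart between these times.

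The Myl12b probes fell into different ranges. At 24 h probe 10200 read 3.27, probe 5688 read 3.09 and probe 1798 read 2.65, whereas probe 578 read 0.68 and probe 11024 read -0.14. These 5 probes had read 0.57, 1.03, -0.26, 0.07 and -0.13 on sham, in the same order. Before that, probe 10200 read 1.21, 0.69, 1.53 and 1.38 at the earlier paced times in order, probe 5688 read 0.57, 0.60, 1.13 and 1.30, and probe 1798 read 0.82, 0.56, 0.40 and 1.14. Probe 8944, which read 0.24 on sham and 1.14, 0.81, 1.33 and 1.42 at these times, was listed at 0 at 24 h, as were probe 7773 and the second spot 9232. With zeros and shared values kept as measured, the 24 h difference from sham was 0.96, below 2-fold. No sequence accession is shared between the 5 probes measured at 24 h. What part of the probe differences came from related transcripts was not tested.

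**Figure D4:**
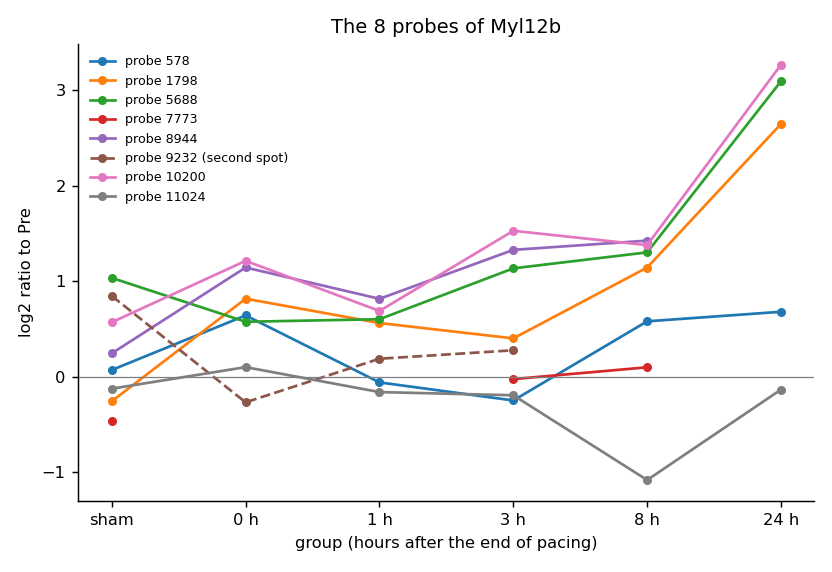
Log2 ratio to Pre of the 8 Myl12b probes by group, 1 line per probe, broken where a probe was not measured; the dashed line is the second spot. Probes 10200, 5688 and 1798 stand between 2.65 and 3.27 at 24 h, and probes 578 and 11024 at 0.68 and -0.14.

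At 2-fold from sham, 1 of 7 measured members was counted at 24 h, Myl12b, against 5.79% of all genes, of which 2.95% were higher. It was also 2-fold above Pre, which 1.14% of genes combined with 2-fold above sham. None of the 7 was counted at 0 h, 1 h, 3 h or 8 h, where 6.64%, 1.57%, 2.32% and 3.77% of genes were. The members' median difference from sham was 0.06, -0.03, 0.01, 0.04 and 0.15 in time order, beside 0.05, 0.03, 0.02, 0.06 and 0.08 over all genes. At 24 h Myh4, Myl2, Mylpf and Myl12b were above sham and Myh7, Myl1 and Myl3 below it, and 57.5% of genes were above. For scale, the median probe SD of genes with several probes was 0.28 to 0.38 in these differences.

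Markers of cells other than muscle fibres are given beside Myl12b, whose protein many cell types hold. At 24 h minus sham, 4 of 8 smooth muscle markers were measured, from -2.76 to 1.01 (median -0.35), and 4 of 6 fibroblast markers, from -0.91 to 0.01 (median -0.59). Endothelial markers (3 of 5) ran from -0.12 to 0.16 and macrophage markers (2 of 5) from -0.33 to 0.05. The single fat and red cell markers measured, of 5 and 4, stood at -0.52 and -0.44. The smooth muscle range holds Actg2, enteric smooth muscle actin, which read 2.52 on sham and -0.24 at 24 h on 1 probe. Actg2 was 2-fold lower than sham at all 5 times, from -3.41 to -2.53. Elsewhere in the marker lists Acta2, vascular smooth muscle actin, differed from sham by -1.04 at 8 h, and Pdgfra, a fibroblast receptor, by -1.59 at 3 h, each on 1 probe. Of 6 skeletal muscle markers, 5 were measured, from -0.55 to 0.34. A ratio carries no level, so the tissue label could not be checked by marker levels. The part of cell composition in the myosin values was not tested.

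Related heavy chain probes were compared by profile, since spotted probes of close relatives can bind each other's transcripts. Myh6, the fast cardiac chain beside Myh7, had 20 probes, of which 15 were measured on all 6 arrays. By root mean square distance, 6 of these were nearer the mean Myh4 profile and 9 nearer the mean Myh7 profile. The split used these same values, sham included, so the means of its sides are a description. The 6 averaged -0.61 on sham and 0.42, 0.25, 0.34, -0.41 and -0.38 on the paced arrays in time order. The 9 averaged 0.21 on sham and -0.10, 0.11, 0.11, -0.04 and -0.37. At 24 h the means of both sides were alike, with SDs of 0.76 and 0.27, but the Myh4 side held probe 5203 at -1.83. The other probes of that side ran from -0.54 to 0.28 at 24 h. The correlation of all 15 Myh6 probes with the Myh4 profile over 6 arrays, all with the Pre reference in common, ran from -0.54 to 0.96. The 23 Myh4 probes measured on all arrays had a median r of 0.96 with the other Myh4 probes. Of these 23, 20 were nearer the other Myh4 probes, and the 3 others included probe 11249, at r -0.93. Of 4 such Myh7 probes, 3 were nearer the other Myh7 probes, among them probe 5334, whose r with those was -0.53. Over all its measured probes Myh6 ran from -0.97 to 0.56 on sham (mean -0.13, SD 0.49, 18 probes). Cross-binding itself was not tested.

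**Figure D5:**
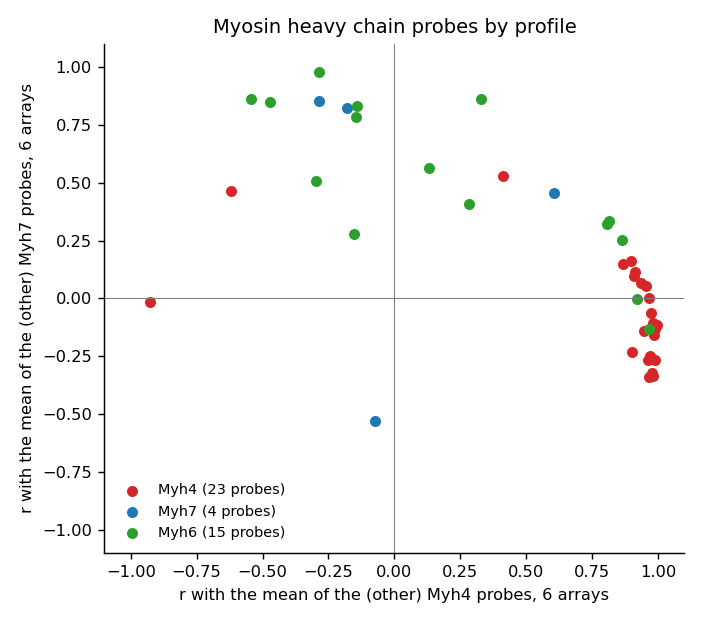
Correlation over the 6 arrays of each heavy chain probe with the mean of the (other) Myh4 probes (horizontal axis) and of the (other) Myh7 probes (vertical axis). Most of the 23 Myh4 probes (red) sit at the right, and the 15 Myh6 probes (green) spread from -0.54 to 0.96 on the horizontal axis.

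Other genes of the thick filament were read from a list of 34, of which 17 gave a difference from sham. Their median was 0.05, -0.01, 0.07, -0.10 and -0.17 at 0 h, 1 h, 3 h, 8 h and 24 h, and 2, 1, 0, 0 and 1 of them were 2-fold higher and 0 lower. Over all genes 6.64%, 1.57%, 2.32%, 3.77% and 5.79% were 2-fold from sham in either direction. The genes counted were Myl9, the smooth muscle regulatory light chain and a close relative of Myl12b, and Mylk3, a myosin light chain kinase. Myl9 differed from sham by 1.42, 0.90, 0.45, 0.65 and 1.01 in time order on 1 probe, which read -1.18 on sham and 0.24 and -0.17 at 0 h and 24 h. Mylk3 differed by 1.21 and 1.40 at 0 h and 1 h, on 1 probe, and by 0.78, 1.00 and 0.77 at the later times, on 2 probes. It read -1.34 on sham (probe SD 0.66, 2 probes) and between -0.60 and -0.34 on the paced arrays. Like Myh4, both had their lowest value on the sham array.

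The fibre type lists can be set beside the isoforms. Of 15 other fast fibre genes, 12 were below sham at 0 h, 1 h, 3 h and 24 h and 11 at 8 h, with medians of -0.17, -0.17, -0.23, -0.21 and -0.30. Over all genes 45.7%, 46.7%, 47.5%, 43.7% and 42.5% were below sham in time order. At 24 h, 3 were 2-fold lower: Casq1, the fast calcium store protein (-1.04, probe SD 0.82, 9 probes), Eno3, muscle enolase (-1.04, 0.19, 2 probes), and Pfkm, muscle phosphofructokinase (-1.04, 0.46, 5 probes), against 2.84% of all genes. Other slow fibre genes (13 of 14, 12 at 1 h) had median differences from sham of 0.18, 0.19, 0.17, 0.29 and 0.06. Against Pre their median was -0.26 on sham, where 10 of 13 were below Pre. On the paced arrays it was 0.00, -0.02, 0.07, 0.04 and -0.12 in time order. The fast fibre medians against Pre were -0.01 on sham and -0.11, -0.15, -0.14, -0.18 and -0.40 on the paced arrays. Among the slow fibre genes Ankrd1, a stretch-responsive titin-binding protein, was 2-fold higher than sham at 8 h (1.54, probe SD 1.57) and 24 h (3.01, SD 2.29, 3 probes). Myl1 was below sham at all 5 times, as most of the fast fibre genes were, and Myh4 stood on the other side of sham at each of them. Atp2a1 of the fast fibre list was also above sham at all 5 times, by 0.70, 0.57, 0.47, 0.46 and 0.58 in time order. Mylpf was above sham at 0 h, 8 h and 24 h (0.28, 0.24 and 0.21) and at -0.02 at 1 h and 3 h.

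The genes whose log2 ratios lay nearest each member over the 6 arrays were found among 1129 genes with 2 or more probes and a value on every array, by root mean square difference. Nearest to Myl1 were Tpm1, striated muscle tropomyosin (0.12, 90 probes), Tmem164 and Usp2. Car3, the carbonic anhydrase abundant in slow fibres, was nearest to Myl3 (0.06), with Itga6 and Bsg next. S100a1, a calcium-binding protein of muscle, was nearest to Myh7 (0.06), ahead of 1300002E11Rik and Tspyl1. For Myl12b, the nearest were the ubiquitin-conjugating enzyme gene Ube2l3 (0.17), Dusp13 (0.20) and the heat shock protein gene Hsp90aa1 (0.27), with 24 h values of 1.59, 1.61 and 1.31. Without its second spot the same genes lay at 0.21, 0.24 and 0.29. Rplp2 (0.12), Fkbp9 and Serping1 were nearest to Myh4, with Dcaf6 in place of Serping1 when second spots were left out. Ube2d2a (0.11), Iqsec2 and Vkorc1l1 were nearest to Mylpf. For Myl2 the nearest genes were Wnk1, Txn2 and Atf6 with its second spot and Clip4, Gapdh and Retreg3 without it.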

How the data were processed

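Log10 ratios of 13872 probes on 6 two-channel arrays, 1 per group, were used as deposited by the authors. The base, which no label gives, was inferred from a rounding residue of 9.64e-17 in 97 cells. Scanner, background correction and normalisation are not given in the sources used here. Ratios were converted to log2, exact zeros and values that several probes of a print block share were set to missing, and each array was centred on its median, which moved it by at most 0.01. A gene's value is the mean of its measured probes with 1 symbol in the platform annotation (6609 probes; 284 have several and 6979 none), and a difference uses probes measured on both arrays. Of the 6609, 6599 matched the gene table by Entrez ID. With 1 array per group no test was possible; the script was tested on simulated data. The number of arrays limits the precision. The members and gene lists were chosen with earlier results of these data known, and leaving out second spots was chosen after seeing the data. From each other list, genes 2-fold from sham at any time were named. Alternatives kept zeros, skipped or refined the centring, scaled the arrays, took medians, and changed the probes or comparator. Python 3.11.15, numpy 2.4.6 and pandas 2.3.3 were used.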

Additional observations from a re-analysis of the deposited data

Results flagged for a closer look

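Probe 11301, which the annotation gives to both Myhas and Myh1 and which no member's mean uses, had a difference from sham of -0.68 at 8 h. It is listed because it is a signal outside the probes compared. It read -0.05 on sham and -0.73 at 8 h.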

How the results depend on the processing

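Results were recomputed under 10 alternatives. Of 126 recomputed values for the 14 main results (fast minus slow on each array, members 2-fold from sham, Myh4 at 0 h and Myl12b at 24 h), 123 moved by less than the spread or stayed within 1.5 times, and 3 did not. With zeros and shared values kept, fast minus slow on sham was -0.22 and the count of members 2-fold from sham at 24 h was 0. With arrays scaled to a common spread, fast minus slow at 8 h was -0.49. The cause was not tested beyond what each alternative does to the values. The yardstick for the other values is wide. With Pre as comparator Myh4 at 0 h was 0.21 in place of 0.87, which is within its probe SD of 0.81. Skipping the centring could change little, since it moved each array by at most 0.01. Of 945 recomputed values for 111 other results, 25 moved by more than the probe spread, 15 of them under scaling. Of the member values only those of Myl12b at 24 h were 2-fold, and these did not change sign. Smaller values did change sign over the main setting and the alternatives, which include Pre as comparator. Myh4 ran from -0.23 to 0.44 at 8 h and from -0.10 to 0.61 at 24 h. Both low ends are its values against Pre, and at each time it was above 0 in 10 of 11 settings. Its difference from sham therefore kept its sign in all of them. Mylpf ran from -0.24 to 0.28 at 0 h. No paired analysis was possible because each group has 1 array. One array per group limits every comparison, and signals over background were not used here.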
